A study of Caenorhabditis elegans with 6 samples.

Results

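The 9 genes described here encode basic leucine zipper (bZIP) transcription factors of stress and immune responses in the nematode Caenorhabditis elegans: zip-2, zip-3, zip-10, cebp-1, cebp-2, atf-4, atf-7, atfs-1 and xbp-1. They were chosen by name, as the bZIP factors of stress and immunity other than skn-1 and zip-1. All 9 were found among the 20001 genes of the files and all 9 passed the filter on low counts, so that they are 9 of the 15410 genes tested. RNA was sequenced from whole L4 larvae, the last larval stage, grown at 20°C. The libraries were 3 of ddi-1(icb156) mutants and 3 of wild type, each labelled as a biological replicate. DDI-1 is the aspartic protease that processes SKN-1A, the bZIP factor that raises proteasome gene expression when the proteasome is impaired. The icb156 allele came from a chemical mutagenesis screen, and the only strain listed for it holds an integrated reporter transgene (GFP from the chil-27 promoter, mCherry from the col-12 promoter). No source used here says whether the wild-type animals carried it too, and the effects of the allele, the transgene and other mutations of the strain cannot be told apart.

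A bZIP factor binds DNA as a dimer, through a basic region next to a leucine zipper that holds the partners together, and dimers form within and between the families. Several factors of this group are controlled after transcription: xbp-1 mRNA is spliced in the cytoplasm by the kinase and nuclease IRE-1, atf-4 is translated more when the initiation factor eIF2α is phosphorylated, ATFS-1 protein is sorted between mitochondria and nucleus, and ATF-7 is phosphorylated by the p38 kinase PMK-1. The mRNA level measured here is therefore only one layer of their regulation, and target genes are given below beside each factor.

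The libraries held 28962104 to 36258118 estimated counts in the mutants and 40554395 to 47142002 in wild type. Values are given as CPM, estimated counts scaled to a common library size that the TMM method adjusts. The mutated gene, ddi-1, had 35.0, 35.3 and 35.48 CPM in the mutants and 48.5, 50.3 and 48.6 CPM in wild type. The icb156 allele is a non-synonymous change that need not alter the RNA, but every mutant library lay below every wild-type library. The cause of this difference was not tested. Wild-type replicate 2 stood apart: on the first principal component it lay at 17.2, between the mutants (-62.8 to -50.6) and the other wild-type libraries (74.9 and 77.4). Without it, 19.7% of the 15644 genes then tested were higher and 22.2% lower, against 9.96% and 13.4% with all 6 libraries. Leaving out any other library gave 5.95 to 6.62% higher and 4.93 to 7.62% lower. Yolk, sperm and oocyte markers were lower in the mutants for all 6, 4 and 6 genes of their lists, with summed levels of 302 to 536 CPM in the mutants and 2754 to 5709 CPM in wild type for yolk. Sperm markers summed to 47.4 to 80.9 CPM in the mutants and 95.1 to 247 CPM in wild type, and oocyte markers to 151 to 189.7 CPM in the mutants and 295 to 639.9 CPM in wild type. The yolk calls held with each library left out. Without mutant replicate 1 or 2 or wild-type replicate 1 or 3 none of the 4 sperm genes passed, and without mutant replicate 3 the count was 2. For oocyte genes the count was 2 without mutant replicate 2 and 3 without mutant replicate 1 or 3 or wild-type replicate 1 or 3. For germline markers 2 of 6 genes were lower, with summed levels of 1171 to 1391 CPM in the mutants and 1422 to 1759 CPM in wild type. For neuronal markers 4 of 8 were higher, with summed levels of 418 to 486 CPM in the mutants and 328 to 398 CPM in wild type, and no gene of these lists was at 0. Of the other marker lists, 1 of 7 intestine, 1 of 7 epidermis and 1 of 6 pharynx genes were higher and 1 of 6 body wall muscle genes was lower. In the paired fit described below, 4 of 6 germline genes were lower (pgl-1 and syp-1 gained), no intestine or muscle gene passed (ifb-2 and myo-3 lost), the epidermis gene che-14 was lower, and 4 neuronal genes were again higher, with unc-104 gained and egl-3 lost. Among the wild-type libraries, replicate 2 had the lowest sum for yolk (2754 CPM), sperm (95.1 CPM), oocyte (295 CPM) and germline markers (1422 CPM). For the neuronal, intestine, epidermis, pharynx and body wall muscle lists its sum was the highest of wild type. All samples are labelled L4, and their age within that stage is not given. The part of tissue composition in the results below was not tested, and in whole animals fewer cells of a type and less RNA per cell cannot be told apart.

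Of the 9 bZIP genes, atfs-1, zip-10 and zip-2 were higher in ddi-1(icb156) mutants and none was lower. To pass, a gene needed p under 0.01 together with adjusted p under 0.1 in edgeR's quasi-likelihood test with Benjamini-Hochberg adjustment over the 15410 genes tested. The 3 higher genes are 33.3% of the group, whereas 9.96% of all genes tested were higher and 13.4% were lower. At an unadjusted p below 0.05, 5 of the 9 were higher and 0 were lower, and DESeq2 called 4 higher and 0 lower. The same p alone was met by 19.2% of all genes as higher and 22.8% as lower, and DESeq2 called 12.5% higher and 18.4% lower. The median log2 fold change was 0.26 over the 9 genes and 0.01 over all genes tested. The ranges of the groups did not overlap for 8 of the 9 genes, with the mutants above wild type in 6 and below it in 2. Of all genes tested, 46.8% did not overlap, with 23.4% above and 23.5% below. In a paired fit, in which replicate number was a block, 3 genes were again higher, but zip-2 no longer passed and cebp-1 did. In that fit 9.11% of all genes were higher and 14.3% lower.

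**Figure D1:**
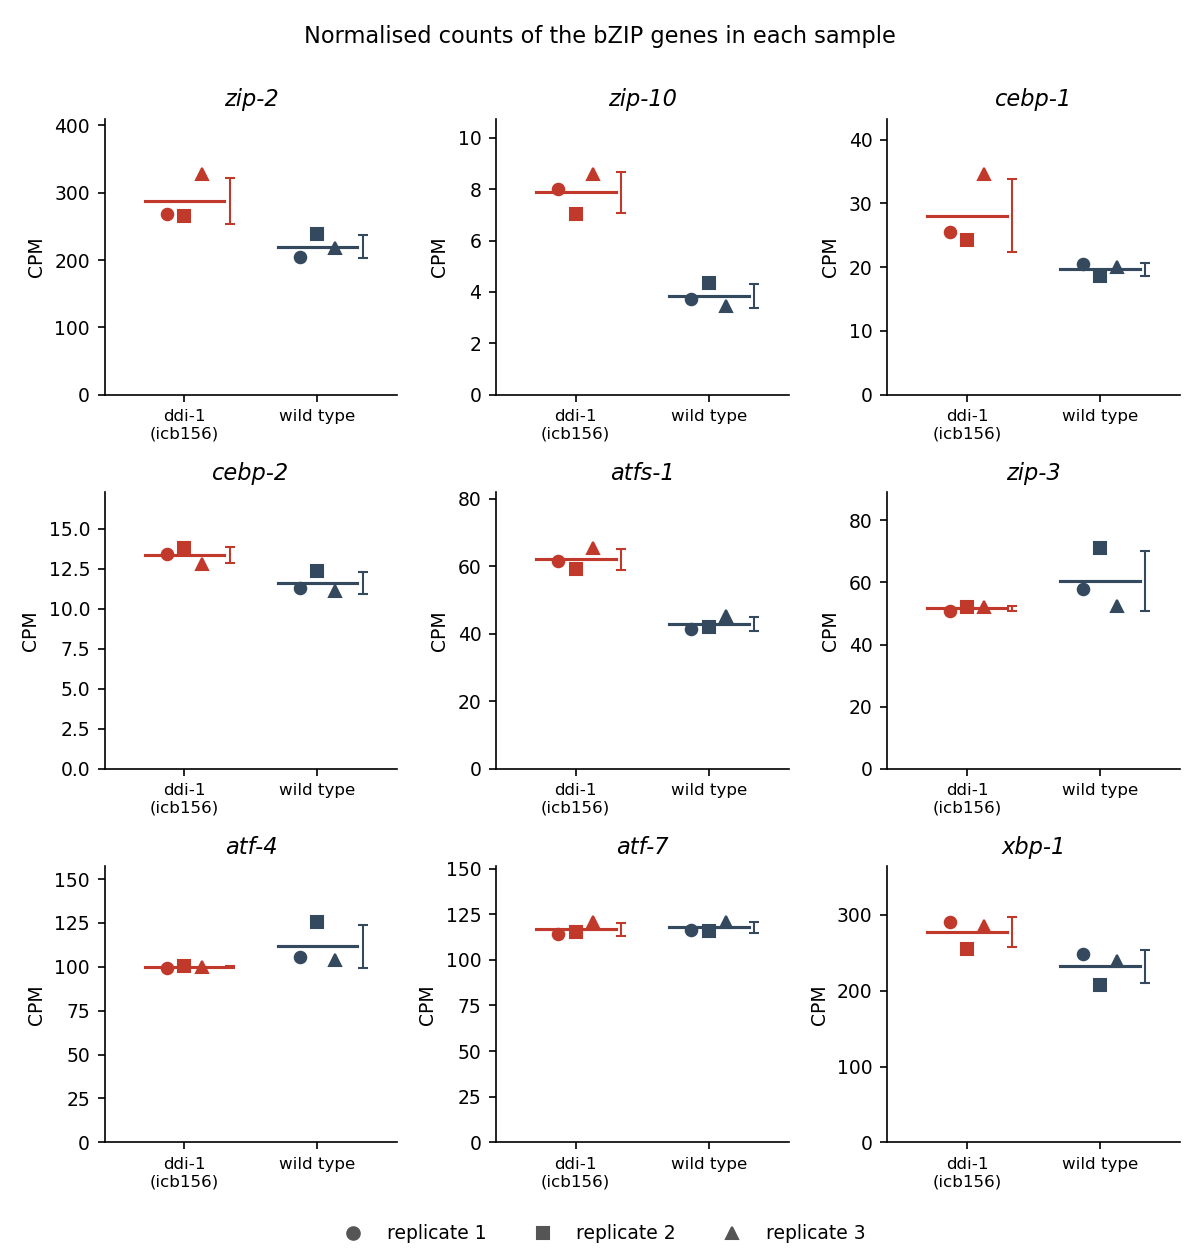
Normalised counts (CPM, linear axes that start at 0) of the 9 bZIP genes in each of the 3 ddi-1(icb156) and 3 wild-type libraries. Horizontal lines are means, bars beside them are the SD, and symbols mark the replicate number. All 3 mutant libraries lie above all wild-type libraries for zip-2, zip-10, cebp-1, cebp-2, atfs-1 and xbp-1, and below them for zip-3 and atf-4.

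Per transcript length the group spanned an order of magnitude. In TPM, which corrects for transcript length, zip-10 was the lowest, with 14.6 ± 0.847 TPM in the mutants and 7.01 ± 0.989 TPM in wild type (SD, n = 3 each). The highest were xbp-1, with 194 ± 5.77 TPM in the mutants and 158 ± 11.7 TPM in wild type, and zip-2, with 199.7 ± 20.0 TPM in the mutants and 149 ± 14.4 TPM in wild type. By the mean over the 6 libraries the order ran xbp-1, zip-2, atf-4, atf-7, zip-3, cebp-2, atfs-1, cebp-1 and zip-10. The sample ranges of xbp-1 and zip-2 overlapped in both genotypes, with xbp-1 the higher in 3 of 6 libraries. Those of zip-3 and cebp-2 overlapped in the mutants only, and those of atf-7 and zip-3 in wild type only. Every other pair of neighbours kept its order in all 6 libraries, without overlap within a genotype. By the annotation, zip-2 shares 64 exon bases with dos-3 and zip-3 shares 30 with sre-44, both on the opposite strand and with at most 8 counts in any mutant library and 17 in any wild-type library. On the same strand, atf-4 shares 162 bases with 1 gene, atf-7 shares 72 with C07G2.5 and zip-2 shares 78 with linc-37. The last is a lincRNA gene with no counts of its own in the files.

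ZIP-2 and CEBP-2 act together in the response of the intestine to Pseudomonas aeruginosa toxins that block translation, in which they switch on irg-1. The zip-2 gene (chromosome III, 832982 to 835814, plus strand, WBcel235, up to 6 exons) had 269, 266 and 328 CPM in ddi-1(icb156) mutants, against 204, 238 and 218 CPM in wild type. Every mutant library lay above every wild-type library, and mutant replicate 3 was the highest. This is a log2 fold change of 0.39 (SE 0.11, 95% interval 0.13 to 0.64, adjusted p = 0.0402 in edgeR's test). In the paired fit of edgeR it was 0.38 and did not pass, with a p of 0.0138 and an adjusted p = 0.052. It also did not pass without mutant replicate 1 (0.43), mutant replicate 3 (0.28), wild-type replicate 1 (0.34) or wild-type replicate 3 (0.38).

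Its partner cebp-2 (chromosome I, 6253082 to 6253584, plus strand, up to 3 exons) differed less. It had 13.4, 13.8 and 12.81 CPM in the mutants and 11.3, 12.4 and 11.1 CPM in wild type. The mutant values were all above the wild-type values, by a narrow gap, and the log2 fold change of 0.20 (SE 0.10, 95% interval -0.04 to 0.45, adjusted p = 0.182 in edgeR's test) did not pass. Of 3 infection response genes read as reporters of these factors, only irg-1 was higher (33.3%, against 9.96% of all genes tested). It had 11.1, 10.3 and 13.5 CPM in the mutants, against 4.71, 4.24 and 5.24 CPM in wild type, a log2 fold change of 1.298 (SE 0.16, adjusted p = 0.00421), and it passed under all 13 alternatives. The other two did not pass. For irg-2 the log2 fold change was 1.21 with a wide 95% interval, -0.14 to 2.56, and wild-type replicate 3 (2.34 CPM) lay close to the mutants (2.45 to 3.43 CPM). Without that library irg-2 passed, at 2.09. The irg-3 ranges overlapped (log2 fold change 0.16, SE 0.15).

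ZIP-10 promotes the death of animals that are warmed after severe cold, and the splicing factor ISY-1 keeps its mRNA low through a microRNA. The zip-10 gene (chromosome V, 11650079 to 11650762, minus strand, 2 exons) was the most changed of the 9 by fold. It had 8.01, 7.03 and 8.59 CPM in ddi-1(icb156) mutants and 3.74, 4.36 and 3.46 CPM in wild type, from 239 to 283 counts in mutant libraries and 136 to 174 in wild-type libraries. The lowest mutant value lay well above the highest wild-type value. Its log2 fold change was 1.03 (SE 0.16, 95% interval 0.65 to 1.41, adjusted p = 0.00919 in edgeR's test), and it passed under all 12 alternatives that tested the gene, including the leaving out of each library. Its exons share 12 bases with skp-1 on the opposite strand, which had 2524 to 3130 counts in the mutants and 3349 to 3733 in wild type. The log2 fold change of skp-1 was 0.01 (SE 0.06).

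Of 3 genes of the cold pathway, 1 was higher (33.3%, against 9.96% of all genes tested). This was cpr-3, a cathepsin protease gene that ZIP-10 activates. It had 32.1, 32.8 and 41.1 CPM in the mutants, against 13.6, 17.3 and 19.9 CPM in wild type (log2 fold change 1.06, SE 0.17, adjusted p = 0.0106 in edgeR's test), and it passed under all 13 alternatives. The aspartyl protease gene asp-17 had 24.0, 20.7 and 27.5 CPM in the mutants and 15.3, 8.49 and 16.99 CPM in wild type. Its groups did not overlap, but its log2 fold change of 0.82 (SE 0.26, adjusted p = 0.0631 in edgeR's test) did not pass. It passed with DESeq2, in the paired fit, and also without wild-type replicate 2, at 0.57. The repressor isy-1 had a log2 fold change of 0.07 (SE 0.06), with overlapping groups.

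CEBP-1 is the factor through which the DLK-1 and PMK-3 kinases drive axon regrowth after injury, and the kinase-like protein NIPI-3 holds it in check. The cebp-1 gene (chromosome X, 1452695 to 1453868, minus strand, up to 3 exons) had 25.5, 24.2 and 34.6 CPM in ddi-1(icb156) mutants, against 20.6, 18.6 and 20.0 CPM in wild type. The groups did not overlap, and mutant replicate 3 stood above the other two mutants. Its log2 fold change was 0.51 (SE 0.15, 95% interval 0.16 to 0.87), and although its adjusted p was 0.0469 in edgeR's test, its p of 0.0119 missed the limit of 0.01. It passed in the paired fit of edgeR (log2 fold change 0.50, with a p of 0.00986 and an adjusted p = 0.0424). It passed under 8 of 13 alternatives. Without mutant replicate 3 the log2 fold change was 0.33.

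All 10 genes of the kinase pathways upstream of CEBP-1 had positive log2 fold changes, from 0.11 to 0.65, and the median was 0.23. Of these, nipi-3 and mkk-4 were higher and 8 did not pass, or 20% higher against the 9.96% of all genes tested. The inhibitor gene nipi-3 had 53.5, 52.9 and 58.0 CPM in the mutants, against 36.7, 40.0 and 36.7 CPM in wild type (log2 fold change 0.54, SE 0.07, adjusted p = 0.00491 in edgeR's test), and it passed under all 13 alternatives. The kinase gene mkk-4, which acts between DLK-1 and PMK-3, had 10.8, 12.1 and 11.4 CPM in the mutants and 6.83, 8.87 and 6.15 CPM in wild type (0.65, SE 0.17). It passed with 1 library left out only where that was wild-type replicate 2, and its log2 fold change ranged from 0.55 to 0.81. Without wild-type replicate 2, 5 of the 10 genes were higher, while 19.7% of all genes were then higher. The neuronal markers named above moved in the same direction as this list (8 of 8 positive), as did 6 of 6 pharynx and 6 of 7 intestine markers. Epidermis markers were positive for 2 of 7 genes, body wall muscle markers for 1 of 6, and germline, sperm, oocyte and yolk markers for none. The summed epidermis markers went the other way, with 1005 to 1095 CPM in the mutants and 707 to 1007 CPM in wild type. In limma's test on log2 TPM, 4 of the 7 epidermis genes were positive. Without wild-type replicate 2, 4 were again positive and 3 passed as higher.

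ATFS-1 is the factor of the mitochondrial unfolded protein response: it enters the nucleus when mitochondrial import fails, and ZIP-3 represses the same response. Of the 9 genes, atfs-1 (chromosome V, 14193663 to 14197700, plus strand, up to 9 exons) had the smallest p. It had 61.4, 59.3 and 65.5 CPM in ddi-1(icb156) mutants and 41.4, 42.0 and 45.3 CPM in wild type. The groups lay apart, with little spread within either. Between the groups the log2 fold change was 0.53 (SE 0.07, 95% interval 0.37 to 0.70, adjusted p = 0.00466 in edgeR's test), and it passed under all 13 alternatives.

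The repressor gene zip-3 (chromosome II, 13951904 to 13957457, minus strand, up to 6 exons) had 50.8, 52.1 and 52.0 CPM in the mutants and 57.9, 71.2 and 52.5 CPM in wild type. All mutant values were below all wild-type values, but wild-type replicate 3 was within 1 CPM of the highest mutant and wild-type replicate 2 was far above. The log2 fold change of -0.23 (SE 0.11, 95% interval -0.50 to 0.05, adjusted p = 0.18 in edgeR's test) did not pass, and without wild-type replicate 2 it was -0.10.

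Of 12 genes of the mitochondrial response, dve-1 was higher and 11 did not pass, with a median log2 fold change of -0.02. That is 8.33% of the list, against 9.96% of all genes higher. The homeodomain factor gene dve-1, which works with ATFS-1 on the chromatin of its targets, had 39.9, 39.8 and 38.5 CPM in the mutants and 31.2, 32.8 and 30.8 CPM in wild type (0.32, SE 0.06, adjusted p = 0.0178 in edgeR's test). It passed without each library in turn, but not in limma's test on log2 TPM. The mitochondrial chaperone gene hsp-6, the usual readout of this response, had 654, 588 and 718 CPM in the mutants and 655, 689 and 629 CPM in wild type. The groups overlapped (log2 fold change -0.01, 95% interval -0.23 to 0.21). For the chaperonin gene hsp-60 the log2 fold change was -0.10, with a 95% interval of -0.27 to 0.07. Without wild-type replicate 2, 2 of the 12 were higher and 2 lower, while 19.7% of all genes were then higher and 22.2% lower.

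ATF-7 acts at the end of the PMK-1 p38 cascade, the main immune pathway of the intestine. The atf-7 gene (chromosome III, 4491627 to 4499045, minus strand, up to 7 exons) had the largest p of the 9. It had 114, 115.1 and 120.5 CPM in ddi-1(icb156) mutants, against 117, 116 and 121 CPM in wild type. The groups overlapped throughout, and the log2 fold change was -0.01 (SE 0.05, adjusted p = 0.876 in edgeR's test). Its 95% interval, -0.14 to 0.12, was the narrowest of the 9.

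In the cascade upstream of ATF-7, 2 of 5 genes were higher, 1 was lower and 2 did not pass, against 9.96% of all genes higher and 13.4% lower. The gene of the adaptor TIR-1, at the top of the cascade, had 43.0, 50.6 and 55.0 CPM in the mutants and 28.3, 36.1 and 27.8 CPM in wild type (log2 fold change 0.69, SE 0.14, adjusted p = 0.0215 in edgeR's test). This tir-1 difference passed under all 13 alternatives. The phosphatase gene vhp-1 was higher by 0.28 and the kinase gene sek-1 was lower by -0.27, and neither passed in the paired fit or in limma's test on log2 TPM. The sek-1 call was also lost by library size alone, and the vhp-1 call with no filter on low counts. Among the libraries, sek-1 lost its call without mutant replicate 1 or 2 or wild-type replicate 1 (-0.29 to -0.24 over all omissions), and vhp-1 kept it only without wild-type replicate 3 (0.22 to 0.35). For pmk-1 itself the log2 fold change was 0.23 (SE 0.10, adjusted p = 0.15 in edgeR's test), and it passed only without wild-type replicate 2, at 0.32.

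Of 10 defence genes that depend on PMK-1, 2 were higher (20%, against 9.96% of all genes) and 8 did not pass, and 9 of the 10 were positive around a median of 0.48 (log2). The gene irg-5 had 51.5, 72.5 and 66.8 CPM in the mutants, against 13.9, 20.4 and 14.8 CPM in wild type (1.96, SE 0.19, adjusted p = 0.00214 in edgeR's test). The gene sysm-1 had 3.35, 3.04 and 3.55 CPM in the mutants, against 1.34, 1.33 and 1.91 CPM in wild type (1.12, SE 0.21, adjusted p = 0.0181). Both passed under every alternative that tested them. In the paired fit lys-2, a lysozyme gene, passed too (0.42), so that 3 of the 10 were higher, against 9.11% of all genes. The count was also 3 by library size alone, with DESeq2 and in limma's test on log2 TPM, where dod-22 passed and lys-2 did not. Under these settings 12.4%, 12.5% and 10.6% of all genes were higher. Without wild-type replicate 2, 5 of the 10 were higher and 1 was lower, while 19.7% of all genes were then higher and 22.2% lower.

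ATF-4 is made when eIF2α kinases slow translation, and it drives amino acid synthesis and transsulfuration. The atf-4 gene (chromosome X, 14809156 to 14810810, minus strand, up to 4 exons) had 99.2, 100.5 and 99.9 CPM in ddi-1(icb156) mutants, against 105.5, 126 and 103.6 CPM in wild type. The mutants were nearly equal to each other and below all wild-type libraries, of which replicate 2 was the highest. The log2 fold change of -0.16 (SE 0.09, 95% interval -0.37 to 0.04, adjusted p = 0.201 in edgeR's test) did not pass, and without wild-type replicate 2 it was -0.07. None of the 4 genes of eIF2α and its kinases passed, with log2 fold changes of -0.12 to 0.34. The highest was pek-1, the ER kinase of eIF2α (SE 0.13, adjusted p = 0.103), which passed in the paired fit and without wild-type replicate 2, at 0.45. At an unadjusted p below 0.05, 1 of these 4 was higher and none was lower, against 19.2% and 22.8% of all genes. DESeq2 called none in either direction.

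Among 7 enzymes of transsulfuration, serine and asparagine synthesis, 1 was higher, 2 were lower and 4 did not pass, against 9.96% of all genes higher and 13.4% lower. The cystathionine gamma-lyase gene cth-2, which makes cysteine and hydrogen sulfide downstream of ATF-4, had 116, 109.6 and 116 CPM in the mutants, against 206, 194.5 and 205 CPM in wild type. No mutant library came near the wild-type range, and the log2 fold change was -0.83 (SE 0.06, adjusted p = 8.55e-04 in edgeR's test), which passed under all 13 alternatives. The paralog cth-1 went the other way without passing (0.64, SE 0.20, adjusted p = 0.0553 in edgeR's test). It passed by library size alone, with DESeq2, in the paired fit and without mutant replicate 2. The asparagine synthetase gene asns-1 was higher (0.83, SE 0.19, adjusted p = 0.029), with 62.8, 56.8 and 49.2 CPM in the mutants and 39.8, 24.5 and 30.9 CPM in wild type. Its call was lost without mutant replicate 1 or 2 or wild-type replicate 3, with log2 fold changes of 0.67 to 1.02. The cystathionine beta-synthase gene cbs-2 was lower (-1.40, SE 0.34, adjusted p = 0.0332), and kept its call with 1 library left out only where that was mutant replicate 3 or wild-type replicate 2 (-1.67 to -1.20).

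The cytosolic aminoacyl-tRNA synthetase genes, a further class that ATF-4 controls in mammals, had log2 fold changes of -0.25 to 0.03. Of 20, cars-1 was lower (-0.25, SE 0.07, adjusted p = 0.0403 in edgeR's test) and 19 did not pass, with a median log2 fold change of -0.09. The 1 lower gene is 5% of the list, against 13.4% of all genes. In this fit 3 of the 20 were positive and 17 negative, and in 9 all mutants lay below all wild-type libraries. Of all 15410 genes tested, 7785 were positive, and in 23.5% all mutants lay below all wild-type libraries. DESeq2 called 2 of the 20 lower, against 18.4% of all genes. By library size alone 10 of the 20 were positive and 10 negative, and none passed. The cars-1 call was lost in the paired fit and under the stricter filter, and it was also lost without mutant replicate 1 or 2 or wild-type replicate 1 or 3 (-0.29 to -0.20 over all omissions).

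**Figure D2:**
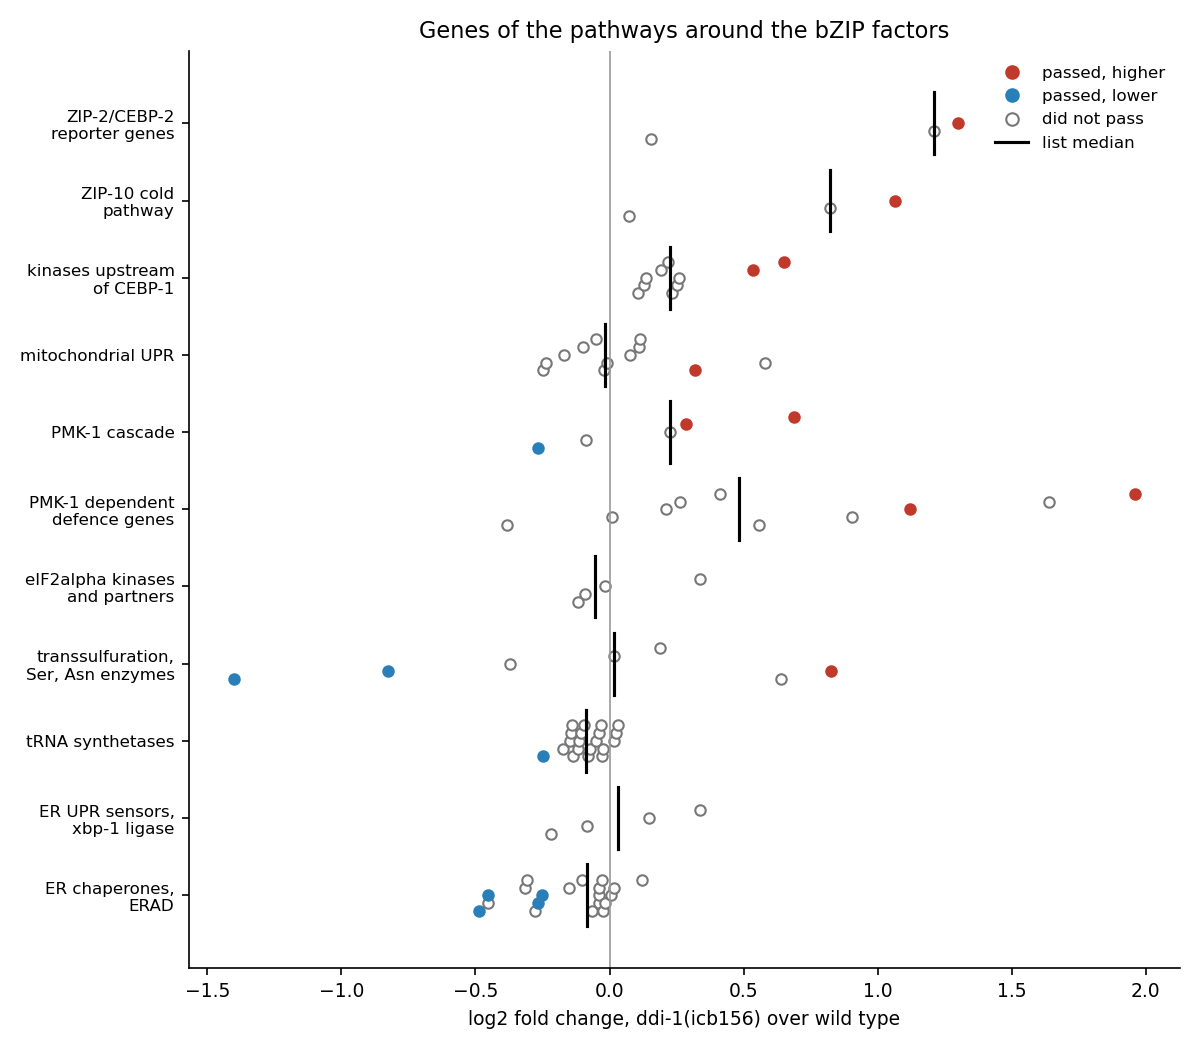
Log2 fold changes, ddi-1(icb156) over wild type, of the tested genes in 11 lists of genes around the bZIP factors. Each point is 1 gene, filled red where it passed as higher, filled blue where it passed as lower and open where it did not pass, and black bars are list medians. The lists around ZIP-2, ZIP-10, CEBP-1 and PMK-1 have positive medians, from 0.23 to 1.21, and those of the tRNA synthetases and the ER chaperones have medians of -0.09 and -0.08. By library size alone, which is not drawn, the medians of the tRNA synthetases and the ER chaperones were -0.00388 and -0.0021.

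XBP-1 is the factor of the unfolded protein response of the endoplasmic reticulum (ER). The xbp-1 gene (chromosome III, 4193809 to 4195358, plus strand, up to 4 exons) had 291, 255 and 286 CPM in ddi-1(icb156) mutants, against 248.5, 208 and 239.7 CPM in wild type. The groups did not overlap, and replicate 2 was the lowest library of each. For xbp-1 the log2 fold change was 0.26 (SE 0.09, 95% interval 0.04 to 0.48), and its p of 0.0285 missed the limit (adjusted p = 0.0812 in edgeR's test). It passed by library size alone and in limma's test on log2 TPM, with log2 fold changes of 0.29 to 0.34.

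None of the 4 genes of the ER stress sensors and the RNA ligase that joins the xbp-1 exons passed. For the sensor gene ire-1 the log2 fold change was -0.08 (SE 0.05), and for the ligase gene rtcb-1 it was -0.22 (SE 0.07, adjusted p = 0.0703 in edgeR's test). At an unadjusted p below 0.05, 1 of these 4 was higher and 1 was lower, against 19.2% and 22.8% of all genes. DESeq2 called none. The list holds pek-1, whose values are given above.

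Of 20 genes of ER chaperones and ER-associated degradation, 4 were lower, none was higher and 16 did not pass, against 13.4% of all genes lower. At an unadjusted p below 0.05, 8 were lower and none was higher, against 22.8% and 19.2% of all genes. DESeq2 called 5 of the 20 lower and none higher, against 18.4% and 12.5% of all genes. In the main fit 3 of the 20 were positive and 17 negative, with a median log2 fold change of -0.08. By library size alone 10 were positive and 10 negative, with a median of -0.0021, and 2 passed as lower, against 11% of all genes. In limma's test on log2 TPM 8 were positive and 12 negative, with a median of -0.04. The co-chaperone gene dnj-20 had 319, 303 and 302 CPM in the mutants and 426, 427 and 411 CPM in wild type (log2 fold change -0.45, SE 0.06, adjusted p = 0.00467 in edgeR's test). The gene of the ubiquitin ligase SEL-11, the worm HRD1, had 79.5, 77.4 and 93.6 CPM in the mutants, against 122, 112 and 117 CPM in wild type (sel-11, -0.49, SE 0.09, adjusted p = 0.0146). Both differences passed under all 13 alternatives. The genes of its partner SEL-1 (sel-1, -0.25) and of the Derlin CUP-2 (cup-2, -0.27) were also lower, and each lost its call by library size alone and in limma's test on log2 TPM. The sel-1 call was also lost without mutant replicate 1 or 2 or wild-type replicate 3 (-0.28 to -0.22 over all omissions). The cup-2 call was lost without mutant replicate 2 or wild-type replicate 1 or 3 (-0.30 to -0.24). The BiP gene hsp-4, the standard readout of XBP-1 activity, had 355, 327 and 406 CPM in the mutants and 486, 372 and 495 CPM in wild type. Its groups overlapped through wild-type replicate 2, and the log2 fold change of -0.32 (SE 0.14, 95% interval -0.64 to 0.01) did not pass. Without that library hsp-4 passed as lower, at -0.44, and 6 of the 20 genes were lower and 1 was higher, while 22.2% of all genes were then lower and 19.7% higher.

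The other bZIP genes give the setting of the 9. Of 20 listed, 17 could be tested, and 6 were higher, none was lower and 11 did not pass. The untested ones were ces-2, sknr-1 and zip-6. At an unadjusted p below 0.05, 6 of the 17 were higher and 1 was lower, and DESeq2 called 6 higher and none lower. Of all genes, 19.2% were higher and 22.8% lower at that p, and DESeq2 called 12.5% higher and 18.4% lower. The median log2 fold change was 0.15. With the 9 genes, 9 of 26 bZIP genes tested (34.6%) were higher and none was lower, against 9.96% of all genes higher and 13.4% lower. The largest difference was that of zip-1, an immune factor, with 67.7, 64.3 and 67.5 CPM in the mutants and 15.7, 18.2 and 15.8 CPM in wild type (log2 fold change 2.01, SE 0.08, adjusted p = 1.25e-04 in edgeR's test). Its exons share 62 bases with pph-4.1 on the opposite strand, whose log2 fold change was -0.08. Leaving out 1 library gave 3 to 7 higher genes among the 17, with 3 without wild-type replicate 1, where 6.55% of all genes were higher. The count was 7 without wild-type replicate 2, where 19.7% of all genes were higher.

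The CREB gene crh-1, with 47.7, 46.2 and 50.7 CPM in the mutants and 33.9, 36.0 and 35.1 CPM in wild type, had a log2 fold change of 0.46 (SE 0.06, adjusted p = 0.0063 in edgeR's test). The JUN gene jun-1 had 0.48 (SE 0.10, adjusted p = 0.0208), and its exons share 501 bases with C16D2.1 on the same strand, so its counts are uncertain. Both passed under all 13 alternatives, as did zip-1. The FOS gene fos-1 (0.39), zip-12 (0.40) and zip-8 (1.45) were also higher. Of these, zip-12 and zip-8 did not pass in the paired fit, so that 4 of the 17 were then higher, against 9.11% of all genes. The fos-1 call was lost in limma's test on log2 TPM. With libraries left out, fos-1 lost its call without mutant replicate 3 or wild-type replicate 1 or 3 (0.30 to 0.45 over all omissions). The zip-12 call was lost without mutant replicate 1 or 3 or wild-type replicate 1 or 3 (0.35 to 0.47). The zip-8 call was lost without mutant replicate 1 or 2 or wild-type replicate 1 (1.20 to 1.71). For skn-1, whose product DDI-1 processes, the groups overlapped (-0.03, SE 0.07). Exons of fos-1, zip-12 and skn-1, and of cth-2, sek-1 and cars-1 above, also overlap those of other genes.

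**Figure D3:**
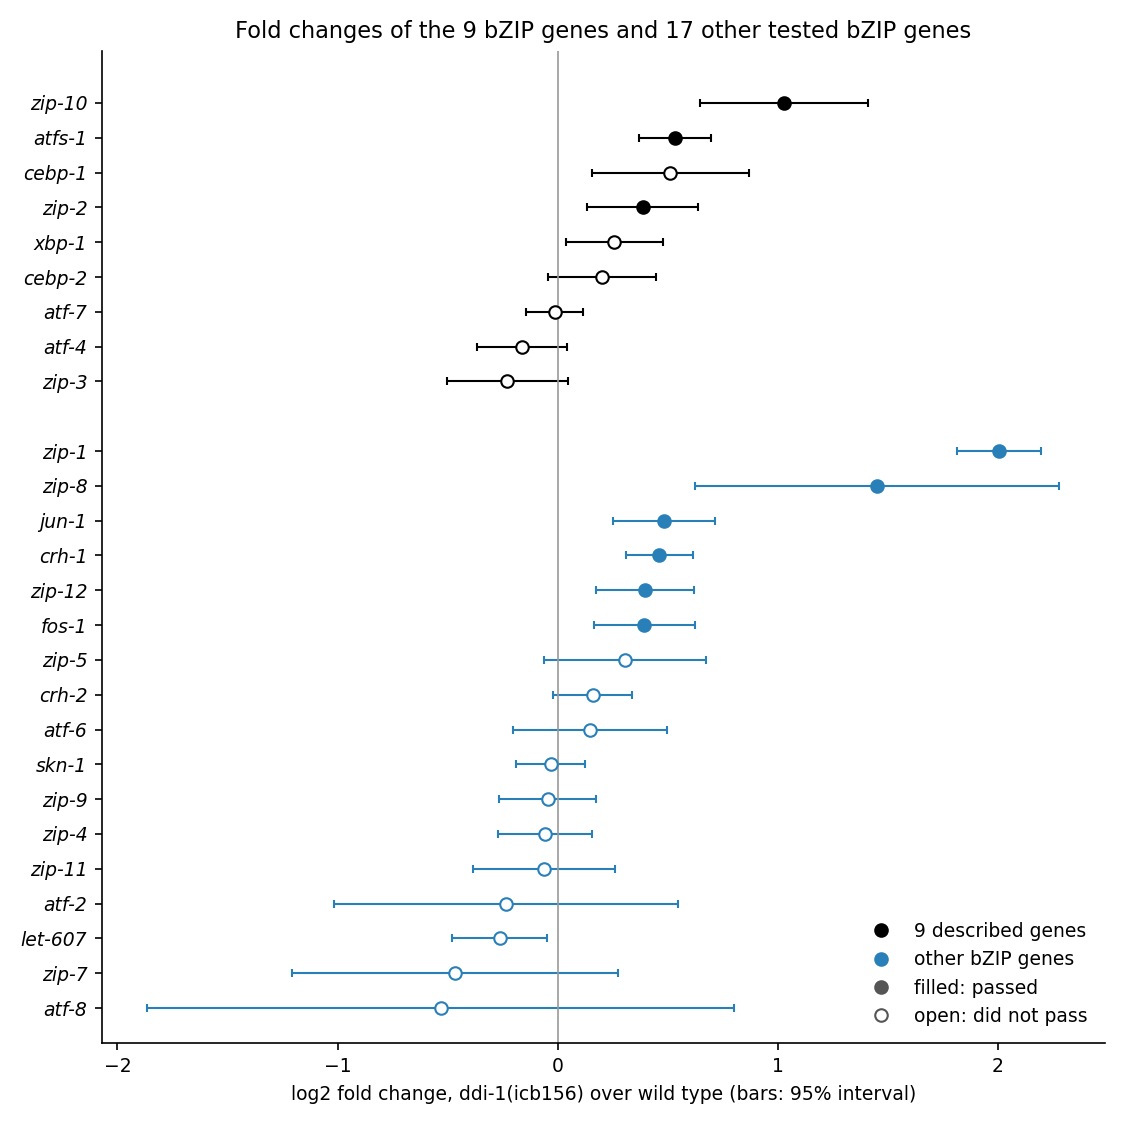
Log2 fold changes, ddi-1(icb156) over wild type, of the 9 bZIP genes (black, upper block) and of the 17 other bZIP genes tested (blue, lower block), with 95% intervals. Filled points passed the test and open points did not. All 9 filled points, 3 black and 6 blue, lie to the right of 0.

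The files count 27 transcripts of the 9 genes, of which 22 were tested. Only the zip-10 transcript T27F2.4.1 passed (log2 fold change 1.03, SE 0.21, adjusted p = 0.0824 in edgeR's test over 25554 transcripts, of which 2.59% were higher and 2.76% lower, or 5.36% in either direction). Since zip-10 has 1 transcript, this repeats the gene's own counts, and it did not pass at this level in the paired fit (adjusted p = 0.22). It passed with 1 library left out only where that was wild-type replicate 2. For zip-2 every count was assigned to K02F3.4.2. The counts of atfs-1 were spread over 7 transcripts, of which ZC376.7a.2 took 36.0, 43.6 and 36.0% in the mutants and 30.7, 33.8 and 39.6% in wild type. The log2 fold change of ZC376.7a.2 was 0.68 (SE 0.17, adjusted p = 0.118).

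The transcript shares of zip-3 did not overlap between the genotypes. The longer of its transcripts, W07G1.3.1, took 61.2, 65.8 and 58.3% of the gene's counts in the mutants and 67.4, 76.8 and 65.9% in wild type. The highest mutant share was just under the lowest wild-type share (exact two-sided permutation p = 0.1, the smallest possible here), and replicate 2 was the highest in each genotype. For xbp-1, R74.3.2 took 22.7, 8.5 and 27.7% in the mutants and 20.0, 9.2 and 26.1% in wild type. The genotypes overlapped (exact p = 0.8), while replicate 2 was far below the other libraries in both. For cebp-2, C48E7.11.2 took 42.9, 58.2 and 45.8% in the mutants and 46.7, 70.4 and 60.3% in wild type, with overlapping groups (exact p = 0.2) and replicate 2 again the highest in each. The lengths of these models in the files are not always those of the annotation, as for R74.3.2 with 1430 bases in the files and 1357 in the annotation, so the exons that tell the transcripts apart are not described.

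**Figure D4:**
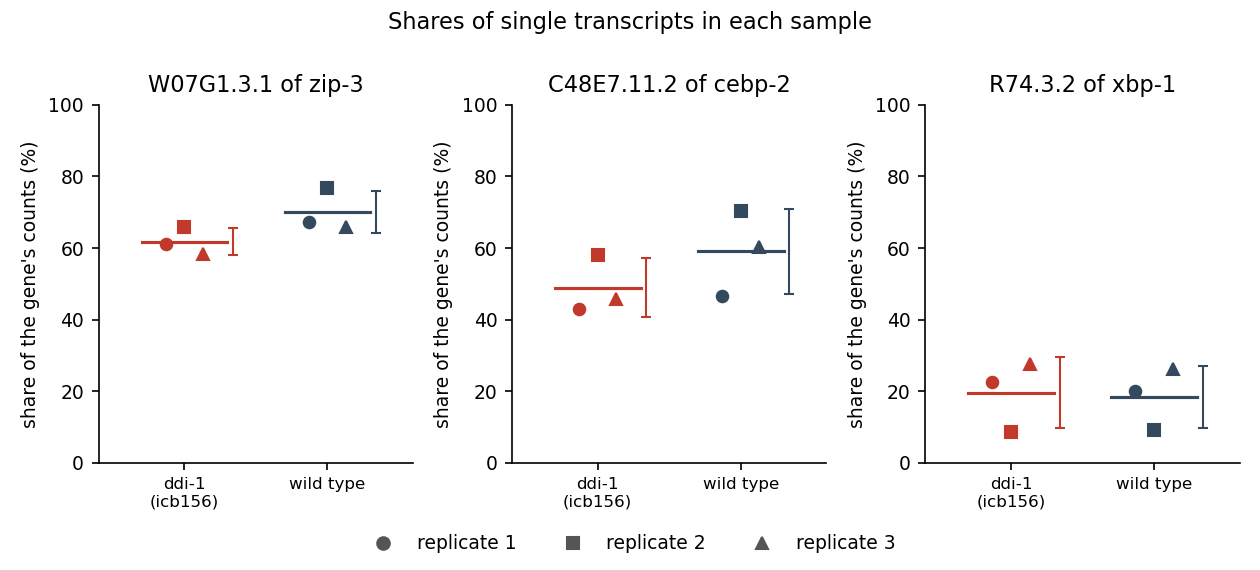
Share of a gene's estimated counts (%) taken by 1 transcript of zip-3, cebp-2 and xbp-1 in each library, with ddi-1(icb156) to the left of wild type in each panel. Lines are means, bars are the SD and symbols mark the replicate number. The zip-3 shares do not overlap between genotypes, and replicate 2 (squares) is the highest library of each genotype for zip-3 and cebp-2 and the lowest for xbp-1.

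Genes whose profile was most like those of atfs-1 and atf-7 were sought among 8500 tested genes of at least 10 CPM, by the root mean square difference of log2 CPM centred on each gene's mean over the 6 libraries. For atfs-1 they were Y59C2A.1 (0.045), F01D5.5 (0.048) and nhr-45 (0.055), a nuclear hormone receptor gene with 34.9 ± 1.13 CPM in the mutants and 23.5 ± 1.07 CPM in wild type (SD, n = 3 each). For atf-7 they were rml-1 (0.012), wbp-4 (0.012) and aly-3 (0.015), and rml-1 had 212 ± 7.71 CPM in the mutants and 212 ± 5.77 CPM in wild type. These distances describe the 6 libraries, and genes that separate the genotypes as atfs-1 does, or stay level as atf-7 does, are close to them by construction.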

How the data were processed

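Per the labels and the study's methods, the authors ran kallisto on RNA of whole L4 animals, against transcripts of WormBase, and then sleuth (no version of either is in the sources used here). The deposited values are estimated counts per transcript, not normalized and not pooled, beside the length and effective length of each transcript, which the authors' files give in bases as another column. The 37058 transcripts were joined to 20001 genes with Ensembl release 115 (WBcel235), 30413 by ID, 6631 by sequence name and 14 not at all. Counts were summed per gene, rounded, filtered with filterByExpr and scaled by TMM, and the groups were compared by edgeR 4.0.16 (R 4.3.3), robust quasi-likelihood, two-sided, without covariates. SE is the log2 fold change over the square root of F. Alternatives were DESeq2 1.42.0, limma 3.58.1 on log2(TPM + 0.5) and log2(TPM + 1) with TPM computed here, library size alone, other filters, the replicate block and each library left out. The edgeR step was tested on simulated data.

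Whether the replicate numbers pair the samples is not settled by these values. Same-numbered mutant and wild-type samples deviated together (correlations 0.114, 0.309 and 0.185), each above the limit of 0.1 set for pairing. Unlike-numbered pairs gave -0.289 to 0.114. Mutant replicate 3 with wild-type replicate 1 equalled the lowest same-numbered pair, and so was also above that limit. The main test therefore stands beside the paired fit. Values with the replicate number as a block stand where they change a call. The labels do not say that the samples came from separate cultures beyond calling them biological replicates. The members were picked by gene name, and they and the lists were chosen with earlier results of these data known. All 9 genes are named, and of each list the counts, up to 4 genes that passed, by p, and genes needed for a role. The marker genes named, lys-2 and dod-22 were chosen after their values were seen, because the block or, for dod-22, other alternatives changed their calls. Strandedness of the libraries: not given in the sources used here. Overlapping genes therefore have uncertain counts. Totals of 28962104 to 47142002 counts leave genes of few counts imprecise.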

Additional observations from a re-analysis of the deposited data

How the results depend on the processing

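The directions and calls of zip-10 and atfs-1 held under every alternative that tested them, and zip-10 has no value under the stricter filter (10 CPM in 3 samples), which leaves it out. Against 3 of the 9 genes higher, 5 were higher by library size alone and 5 in limma's test on log2(TPM + 0.5) or log2(TPM + 1), 4 with DESeq2 or no filter, and 2 to 4 with 1 library left out (3 without wild-type replicate 2, where the share of all genes that were higher was 19.7%, against 9.96%). The genes gained were cebp-1 (0.59 by library size alone, 0.50 with DESeq2, 0.51 with no filter, 0.56 with the stricter filter, 0.52 and 0.50 on log2 TPM, 0.60 without mutant replicate 2) and xbp-1 (0.34 under library size scaling, then 0.30 and 0.29 on log2 TPM). Of all genes tested, 12.4% were higher by library size alone, 10.6% in limma's test on either scale, 12.5% with DESeq2 and 8.43% with no filter. With any library but wild-type replicate 2 left out, that share was 5.95 to 6.62%. With the replicate block 3 of the 9 were higher, zip-2 lost its call (0.38), cebp-1 gained it (0.50), and no other call among the 9 changed. For single transcripts the count of 1 went to 0 with the replicate block and with no filter, and to 0 or 1 with 1 library left out. The direction of atf-7, never near the threshold, turned by library size alone (0.0696), on log2(TPM + 0.5) (0.0241), on log2(TPM + 1) (0.0239) and after the stricter filter (0.0325), and with 1 library left out it ranged from -0.0388 to 0.00974, positive without mutant replicate 1 or wild-type replicate 3. The cause of these changes was not tested. Library size alone moved the median log2 fold change of all genes to 0.09 and the share of higher among called genes to 53.2%, against 42.6% with TMM, and that share was 52.2 and 53.0% on log2 TPM. The transcript shares moved by less than the replicate SD when taken over TPM. With 1 library left out, an arm has 2 samples, and fewer counts per gene, as for zip-10 and sysm-1, leave wider errors.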
